A study of Mus musculus with 12 samples.

Results

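The genes described here are 33 protein-coding genes that mark or build the vascular endothelium, the inner lining of blood and lymph vessels. They were taken by gene symbol from the 52550 genes of the deposited mouse count table, as a hand-written set that was chosen with earlier results of these data known but with no threshold on a measured value, and all 33 were among the 15885 protein-coding genes that passed the filter on low counts. The study asked how a reduced dose of *Adm*, the gene of the vasoactive peptide adrenomedullin, changes the response of the newborn lung to inflammation. Whole lungs of 12 C57Bl/6J mice were sequenced in bulk on postnatal day 5, with 3 mice in each of 4 groups. The mice were WT (*Adm*+/+) or haplodeficient for *Adm* in all cells (*Adm*+/-, a line backcrossed to C57BL/6J). They received lipopolysaccharide (LPS) of *Escherichia coli* O55:B5 or phosphate-buffered saline (PBS) into the peritoneum, as 3 daily injections from postnatal day 3, with LPS at 6 mg/kg, and every lung was taken 6 h after the last injection. In WT mice, replicates 3, 4 and 5 had PBS and replicates 9, 10 and 11 had LPS, and in *Adm*+/- mice replicates 6, 7 and 8 had PBS and replicates 1, 2 and 12 had LPS. Values per library follow this order throughout.

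Endothelial cells hold their neighbours with adherens and tight junctions, of which VE-cadherin (*Cdh5*) and claudin-5 (*Cldn5*) are the best known proteins, and carry surface glycoproteins that meet the blood. Their identity is kept by transcription factors of the ETS, SOX, GATA and Kruppel-like families. In the lung, endothelium lines a dense capillary bed for gas exchange, and bacterial endotoxin opens its junctions and induces leukocyte adhesion molecules on its surface.

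The level of each gene is given as CPM, the gene's count relative to the total count of its library after TMM scaling, and comparisons between genes use CPM per kilobase of annotated exon. Every gene was counted in each library, with between 198 and 40152 reads per gene and library. Averaged over the 12 libraries, *Cldn5* was the most abundant at 297 CPM per kilobase, followed by *Cdh5* at 160.5, the fenestral diaphragm protein *Plvap* at 126, the secreted matrix protein *Egfl7* at 125, the surface lectin *Cd93* at 118 and the signalling modulator *Tmem100* at 107. Within WT PBS, *Plvap* at 140.0 ± 40.6 and *Egfl7* at 147 ± 44.0 CPM per kilobase (SD, n = 3) differed by less than their SD, while *Cd93* stood at 114 ± 11. At the lower end were the transcription factor *Tal1* at 7.18, the sialomucin *Emcn* at 6.18 and *Prox1*, the master factor of lymphatic endothelium, at 1.81. The sum of the 33 genes ranged from 8395 to 8663 CPM in WT PBS (median 8590), from 7505 to 7889 CPM in WT LPS (median 7592), from 8632 to 9202 CPM in *Adm*+/- PBS (median 8696) and from 8082 to 8937 CPM in *Adm*+/- LPS (median 8273). The 2 WT groups did not overlap in this sum, whereas the 2 *Adm*+/- groups did. Without *Scn7a*, which other cell types also express, the WT groups overlapped as well, at 7371 to 7793 CPM under PBS and 6898 to 7403 CPM under LPS. In whole lung RNA, fewer endothelial cells and less RNA per endothelial cell cannot be told apart.

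**Figure D1:**
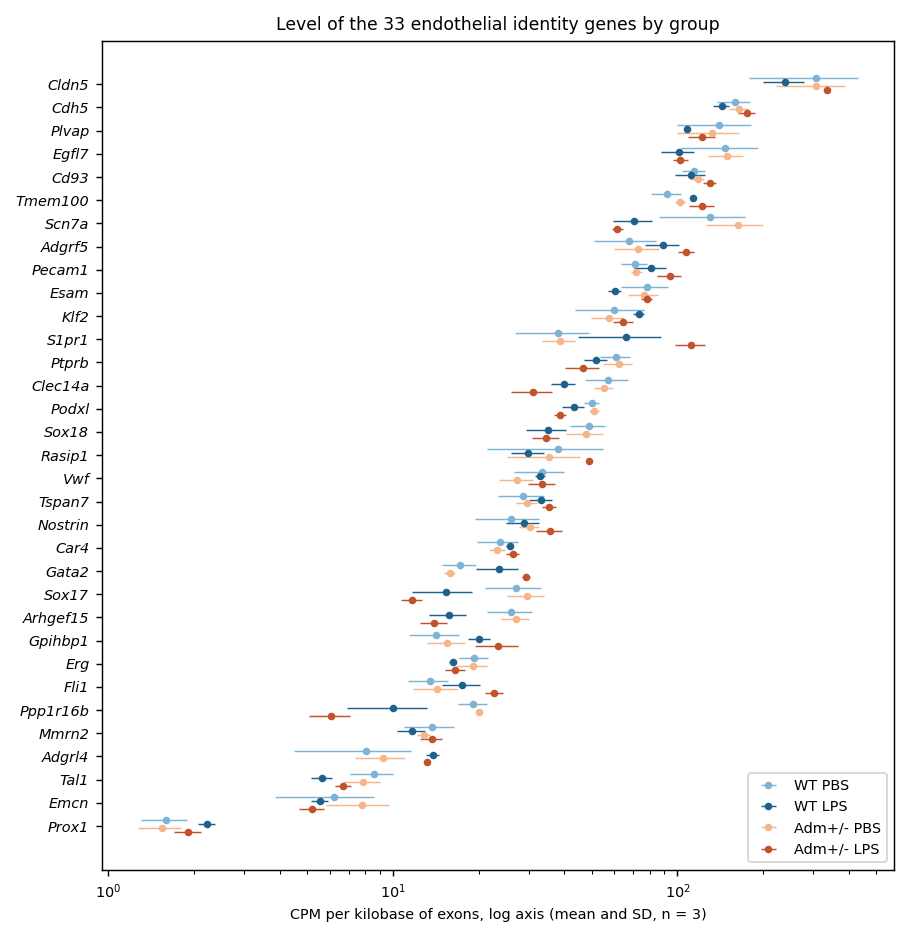
Level of each of the 33 genes in CPM per kilobase of exon on a log axis, as the mean (point) and SD (line) of the 3 libraries of each of the 4 groups. *Cldn5* and *Cdh5* lead the order and *Prox1* is at its foot with 1.81 CPM per kilobase, and LPS and PBS libraries did not overlap in either genotype for *Sox17*, *Arhgef15* and *Ppp1r16b*.

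Library totals ranged from 22382535 to 38062873 counts. In 2 of the PBS libraries, WT PBS replicate 5 and *Adm*+/- PBS replicate 6, the noncoding RNA *Gm26917* took 16.6% and 13.3% of all counts, against 5.42% to 7.40% in the other 10, and their members deviated with GC content (described below). Where leaving out these 2 libraries changed a call, this is therefore stated. *Adm* itself was at 3.96 to 7.09 CPM in WT PBS and 2.87 to 4.58 CPM in *Adm*+/- PBS, with a log2 fold change of -0.50 between genotypes under PBS (SE 0.32, adjusted p = 0.999) and -0.55 under LPS (SE 0.31, adjusted p = 0.480), so the lower *Adm* level did not pass the test. As a check of the labelled tissue, 10 marker genes of type II pneumocytes summed to between 13752 and 17474 CPM in the 12 libraries.

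The first comparison was LPS against PBS within WT mice. The calls went in both directions, and differences between genes were not tested. *Sox17*, *Ppp1r16b*, *Arhgef15*, *Clec14a*, *Scn7a* and *Tal1* fell, *S1pr1* rose, and the remaining 26 did not pass the threshold, which was an adjusted p below 0.05 in edgeR's quasi-likelihood test with an absolute log2 fold change above 0.5. Thus 7 of 33 (21.2%) were called, beside 17.6% of all tested genes. By direction, 1 rise stood beside 10.5% and 6 falls beside 7.09% of all tested genes. The median log2 fold change was -0.17, against 0.01 over all tested genes, and the range ran from -0.93 to 0.80. For 24 of the 33 genes the change was below 0.5 in size. The PBS and LPS libraries did not overlap for 16 genes, a property shared by 36.2% of all tested genes. They were lower under LPS for 10 and higher for 6, beside 17.9% and 18.3% of all tested genes. By the adjusted p alone, 9 genes passed, beside 21.3%. Fitted on the 6 WT libraries alone, the test kept 1 call, *Arhgef15*, beside 7.39% of all tested genes, and the adjusted p of the other 6 lay between 0.0538 and 0.141. The treat test of limma-voom, which asks for a change beyond 0.5, called none of the 7 in WT mice (beside 3.41% of all tested genes).

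In *Adm*+/- mice, the same comparison called 11 of 33 genes (33.3%), beside 25.0% of all tested genes. *Sox17*, *Ppp1r16b*, *Arhgef15*, *Clec14a*, *Scn7a* and *Egfl7* fell, beside 12.2% of all tested genes, and *S1pr1*, *Gata2*, *Fli1*, *Gpihbp1* and *Adgrf5* rose, beside 12.8%. The median log2 fold change was 0.14, against -0.01 over all tested genes, with a range from -1.73 to 1.53. The PBS and LPS libraries did not overlap for 20 genes, beside 53.7% of all tested genes, with 9 lower and 11 higher, beside 27.1% and 26.6%. By the adjusted p alone, 15 genes passed, beside 30.9%. Both genotypes shared 6 calls, beside 13.1% of all tested genes, namely 5 falls (*Sox17*, *Ppp1r16b*, *Clec14a*, *Arhgef15* and *Scn7a*) and the rise of *S1pr1*. Only *Tal1* passed in WT and not in *Adm*+/- mice (beside 4.43%), and 5 genes passed in *Adm*+/- and not in WT mice (beside 11.8%). The treat test called *Sox17*, *Ppp1r16b*, *Scn7a* and *S1pr1* in *Adm*+/- mice, beside 7.17% of all tested genes, and not *Gata2*, *Fli1*, *Arhgef15*, *Clec14a*, *Adgrf5*, *Egfl7* or *Gpihbp1*. Of the 33 genes, 21 passed in neither genotype, beside 70.6% of all tested genes, and 19 stayed below 0.5 in size in both, beside 57.1%.

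**Figure D2:**
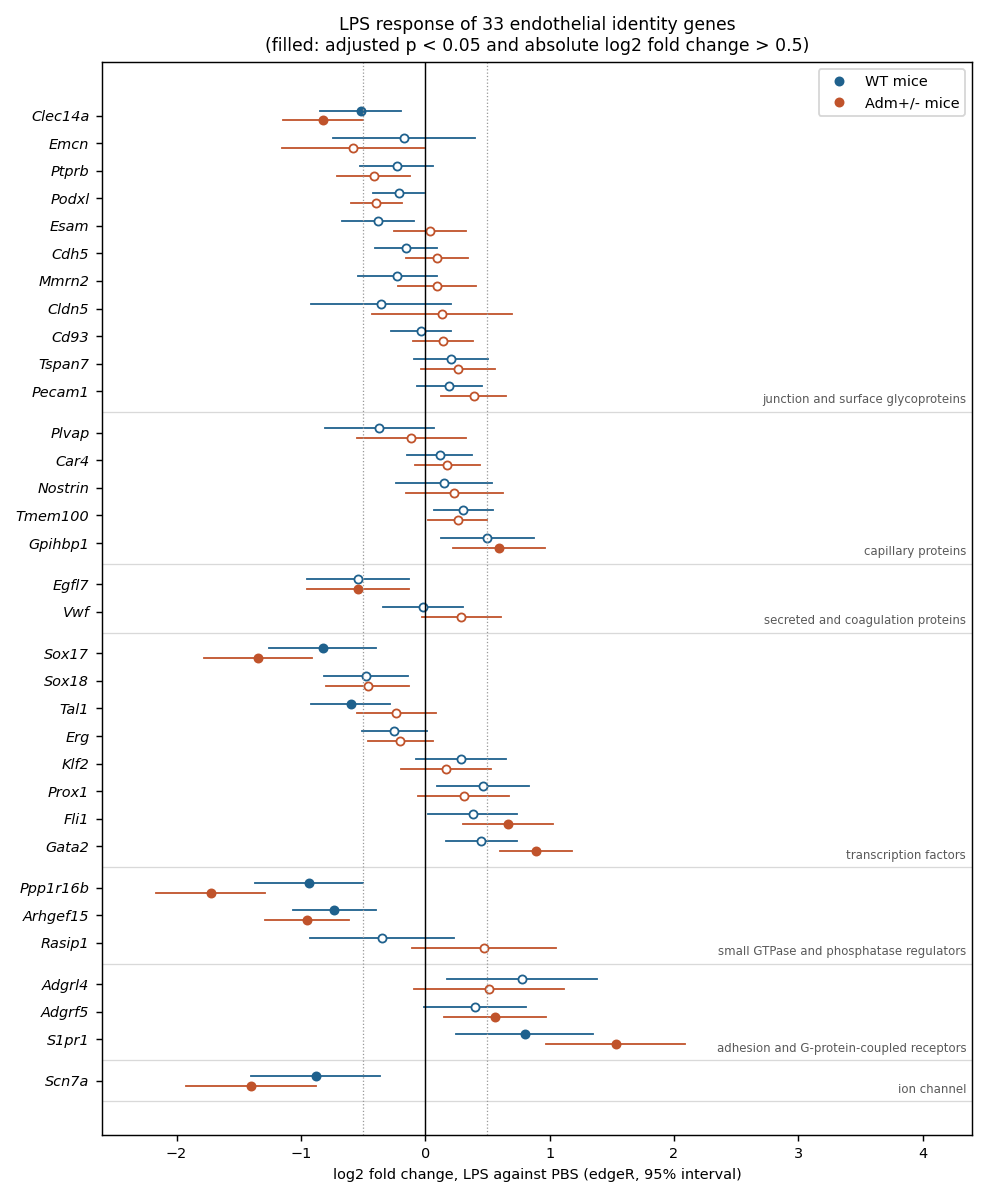
Log2 fold change of LPS against PBS for the 33 genes, grouped by role, in WT (blue) and *Adm*+/- mice (orange), with the 95% interval of the edgeR fit over 12 libraries as a line. Filled points passed the threshold (7 in WT, 11 in *Adm*+/- mice), and dotted lines mark 0.5 in either direction. In *Adm*+/- mice the genes scatter to both sides of 0 within most roles. In WT mice they do so among glycoproteins, capillary proteins and transcription factors only.

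Among the transcription factors, *Sox17* (chr1:4490931-4497354, minus strand, mm10), a factor of arterial endothelial fate, was at 110.4, 115 and 163 CPM in WT PBS and at 53.7, 78.6 and 86.7 CPM in WT LPS. In *Adm*+/- mice its level was 164, 136 and 123 CPM under PBS and 59.1, 50.4 and 57.4 CPM under LPS. Each LPS library was below each PBS library in both genotypes. The log2 fold change was -0.83 in WT (SE 0.20, adjusted p = 0.0129) and -1.34 in *Adm*+/- mice (SE 0.20, adjusted p = 0.000535). *Sox18*, its close relative, had adjusted p below 0.05 in both genotypes but log2 fold changes of only -0.48 (adjusted p = 0.0463) and -0.46 (adjusted p = 0.0396), inside the fold limit. It passed in WT mice without WT PBS replicate 3 or WT LPS replicate 11, and in *Adm*+/- mice without *Adm*+/- PBS replicate 7. The difference between *Sox17* and *Sox18* was not tested.

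*Gata2* (chr6:88193891-88207032), a GATA factor of endothelial and of haematopoietic cells including mast cells, had 83.7, 107 and 87.8 CPM in WT PBS and 144, 135 and 103 CPM in WT LPS. Under *Adm* haplodeficiency it had 81.0, 87.5 and 88.1 CPM with PBS and 156, 156 and 165 CPM with LPS. The WT groups overlapped through replicate 11 of WT LPS, and the *Adm*+/- groups lay well apart. The log2 fold change was 0.89 in *Adm*+/- mice (SE 0.13, adjusted p = 0.000553) and 0.45 in WT (SE 0.13, adjusted p = 0.0320), the latter inside the fold limit. *Gata2* was called in WT mice with the GC offset and without WT PBS replicate 4 or WT LPS replicate 11. None of 7 tested mast cell genes was called by edgeR in either genotype. The sum of the 10 mast cell genes was 279 to 353 CPM in *Adm*+/- PBS and 371 to 396 CPM in *Adm*+/- LPS. *Kit* in this list is also in the general capillary list used below, so the sum cannot be read as mast cells alone. The part of mast cells in the *Gata2* value was not tested.

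The ETS factors *Erg* and *Fli1*, which bind the same core motif, lay on opposite sides of 0. *Fli1* (chr9:32422204-32542861), which megakaryocytes also use, was at 52.7, 49.6 and 38.4 CPM in WT PBS, 71.4, 58.9 and 52.9 CPM in WT LPS, 39.6, 55.2 and 55.1 CPM in *Adm*+/- PBS and 81.0, 83.8 and 73.0 CPM in *Adm*+/- LPS. In both genotypes its LPS libraries were above its PBS libraries, by a narrow margin in WT. The change was called in *Adm*+/- mice (0.67, SE 0.16, adjusted p = 0.0103) and not in WT (0.38, SE 0.16, adjusted p = 0.118). *Erg*, a guardian of endothelial quiescence, had log2 fold changes of -0.25 (95% interval -0.51 to 0.01) in WT and -0.20 (-0.46 to 0.06) in *Adm*+/- mice, neither of which passed. The difference between *Erg* and *Fli1* was not tested.

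*Tal1* (chr4:115056426-115071755), a basic helix-loop-helix factor of blood and endothelium, was the only gene called in WT mice alone. It stood at 34.7, 32.8 and 44.8 CPM in WT PBS and at 22.5, 26.7 and 24.9 CPM in WT LPS, and at 40.1, 32.5 and 30.5 CPM in *Adm*+/- PBS and 27.2, 31.1 and 29.4 CPM in *Adm*+/- LPS. The WT groups were separate and the *Adm*+/- groups overlapped. The log2 fold change was -0.60 in WT (SE 0.15, adjusted p = 0.0145) and -0.23 in *Adm*+/- mice (SE 0.14, adjusted p = 0.249), with a difference between genotypes of 0.37 (SE 0.20, adjusted p = 0.746). The WT call was lost without WT PBS replicate 5 or without WT LPS replicate 9, and the fold change over fits that each left out 1 library ran from -0.69 to -0.45. *Klf2*, the flow-induced Kruppel-like factor (0.29 in WT and 0.17 in *Adm*+/- mice), and *Prox1* (0.47 and 0.31) did not pass in either genotype. Without WT PBS replicate 5 *Klf2* passed in WT mice, where it had 0.53 with both GC-deviating PBS libraries left out (adjusted p = 0.00410). With the GC offset on all 12 libraries *Klf2* was called in WT mice too. *Prox1* also passed in WT mice without WT PBS replicate 3, with 0.63.

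The regulators of small GTPases and phosphatases held the largest fall. *Ppp1r16b* (chr2:158665398-158766334), whose product TIMAP directs protein phosphatase 1 and supports the endothelial barrier, was at 166, 151 and 190.4 CPM in WT PBS and at 62.5, 85.7 and 118 CPM in WT LPS. In *Adm*+/- mice the 3 PBS libraries lay together at 177, 177 and 179 CPM, and the LPS libraries had 60.7, 44.0 and 56.2 CPM. The LPS libraries were below all PBS libraries in both genotypes, and those of *Adm*+/- mice were also below all 3 of WT LPS. The log2 fold change was -0.93 in WT (SE 0.20, adjusted p = 0.00746) and -1.73 in *Adm*+/- mice (SE 0.20, adjusted p = 0.000148), the latter a level 0.302 times that under PBS.

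*Arhgef15* (chr11:68943155-68957480), a guanine nucleotide exchange factor of vascular cells, had 155, 148 and 204 CPM in WT PBS and 84.4, 109.9 and 111 CPM in WT LPS. With a single *Adm* copy it had 197, 160.0 and 168 CPM under PBS and 95.4, 79.4 and 96.8 CPM under LPS. No LPS library reached the lowest PBS library of its genotype. The fall was -0.73 in WT (SE 0.15, adjusted p = 0.00743) and -0.95 in *Adm*+/- mice (SE 0.15, adjusted p = 0.000971) on the log2 scale. *Rasip1*, a Ras-interacting protein needed for vessel lumens, had 83.6, 99.1 and 183 CPM in WT PBS, 102, 104 and 81.2 CPM in WT LPS, 151, 93.0 and 95.9 CPM in *Adm*+/- PBS and 157, 157 and 156 CPM in *Adm*+/- LPS. Its PBS libraries spread widely, with the high values in the 2 libraries rich in *Gm26917*. Log2 fold changes were -0.35 in WT (95% interval -0.93 to 0.23) and 0.47 in *Adm*+/- mice (-0.11 to 1.05), neither called, and its difference from the other regulators was not tested. Without those 2 libraries the WT value turned to 0.06 and a rise in *Adm*+/- mice was called. *Rasip1* shares exon bases with 3 other genes, of which the antisense *A030001D20Rik* had 4.57% to 8.62% of its count.

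Among 11 junction and surface glycoproteins, 1 was called in each genotype, beside 17.6% of all tested genes in WT and 25.0% in *Adm*+/- mice. *Clec14a* (chr12:58264720-58269290), a C-type lectin of angiogenic endothelium, was at 231, 239 and 312 CPM in WT PBS and 168, 176 and 202 CPM in WT LPS, against 270.4, 233 and 252 CPM in *Adm*+/- PBS and 163, 117 and 147 CPM in *Adm*+/- LPS. The treatment groups were separate in each genotype. It fell by 0.52 in WT (SE 0.15, adjusted p = 0.0283) and by 0.82 in *Adm*+/- mice (SE 0.15, adjusted p = 0.00177) on the log2 scale. The WT call was lost without WT PBS replicate 5, WT LPS replicate 9 or WT LPS replicate 10, with fold changes between -0.60 and -0.37 over the fits that left out 1 library.

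The other 10 glycoproteins include the most used endothelial markers. *Cdh5* had 715, 723 and 567 CPM in WT PBS, 638, 605 and 558 CPM in WT LPS, 641, 691 and 745 CPM in *Adm*+/- PBS and 768, 764 and 679 CPM in *Adm*+/- LPS. Its PBS and LPS groups overlapped within each genotype. Its log2 fold changes of -0.15 (95% interval -0.40 to 0.09) in WT and 0.09 (-0.16 to 0.34) in *Adm*+/- mice had intervals that ended short of the fold limit of 0.5. *Cldn5* had wider intervals, from -0.92 to 0.21 in WT and from -0.43 to 0.70 in *Adm*+/- mice. *Pecam1*, the platelet endothelial adhesion molecule CD31, rose in *Adm*+/- mice by the adjusted p alone (0.39, adjusted p = 0.0294) and had 0.19 in WT (adjusted p = 0.262). By the same measure, the receptor phosphatase *Ptprb* (-0.42, adjusted p = 0.0362) and the sialomucin *Podxl* (-0.39, adjusted p = 0.00882) were lower in *Adm*+/- mice, with -0.23 and -0.21 in WT. *Ptprb* was called in *Adm*+/- mice without *Adm*+/- LPS replicate 1, with a range from -0.53 to -0.32 over the fits that left out 1 library. Log2 fold changes in WT and *Adm*+/- mice were -0.04 and 0.14 for *Cd93*, -0.38 and 0.04 for the junction protein *Esam*, -0.17 and -0.58 for *Emcn*, -0.22 and 0.09 for the matrix protein *Mmrn2*, and 0.20 and 0.26 for the tetraspanin *Tspan7*, none of them called in the main fit. In *Adm*+/- mice the fall of *Emcn* was called with the GC offset and in the fit of only the compared libraries. It was also called without WT PBS replicate 5 and without both GC-deviating PBS libraries. Over the fits that left out 1 library it ran from -0.78 to -0.44.

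Of 5 capillary proteins, *Gpihbp1* (chr15:75596628-75599481), which carries lipoprotein lipase across capillary endothelium, was called in *Adm*+/- mice. It had 35.9, 43.7 and 29.4 CPM in WT PBS, 56.5, 47.9 and 49.8 CPM in WT LPS, 35.9, 36.5 and 46.7 CPM in *Adm*+/- PBS and 71.8, 52.5 and 55.3 CPM in *Adm*+/- LPS. LPS libraries were higher than PBS libraries throughout. The log2 fold changes were close to each other, with 0.50 in WT (SE 0.17, adjusted p = 0.0566) and 0.59 in *Adm*+/- mice (SE 0.17, adjusted p = 0.0215). The *Adm*+/- call was lost without *Adm*+/- LPS replicate 1, *Adm*+/- PBS replicate 6 or *Adm*+/- PBS replicate 7, with a range from 0.44 to 0.72. The WT value, just inside the fold limit, was called by DESeq2 (0.50), with the GC offset (0.58) and without WT PBS replicate 4. *Car4*, the carbonic anhydrase of gas-exchange capillaries, was at 0.12 and 0.18, *Tmem100* at 0.30 and 0.26, the nitric oxide synthase adaptor *Nostrin* at 0.15 and 0.23, and *Plvap* at -0.37 and -0.11 in WT and *Adm*+/- mice.

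Of the 2 secreted proteins, *Egfl7* was called in *Adm*+/- mice and *Vwf* in neither genotype. *Egfl7* (chr2:26580014-26593120), an endothelial matrix protein, was at 414, 460.4 and 707 CPM in WT PBS and 307, 382 and 395 CPM in WT LPS, with 614, 464 and 521 CPM in *Adm*+/- PBS and 386, 342 and 372 CPM in *Adm*+/- LPS. Its LPS libraries were below its PBS libraries in each genotype, and the fold change was -0.54 in both, with adjusted p = 0.0584 in WT and 0.0479 in *Adm*+/- mice. That call rested on a narrow margin: it was lost when *Adm*+/- PBS replicate 6 or 8, any single *Adm*+/- LPS replicate, WT PBS replicate 4, or WT LPS replicate 10 or 11 was left out, over a range from -0.63 to -0.43. It was also lost with RLE size factors, with all annotated genes tested, with the GC offset and with the pan-endothelial scaling. In WT mice DESeq2 called *Egfl7*, as did the fit without WT PBS replicate 3. *Agpat2*, which overlaps *Egfl7* on the opposite strand, had 9.81% to 16.4% of its count. *Vwf*, von Willebrand factor, which endothelial cells and platelets store, had -0.02 (95% interval -0.34 to 0.30) in WT and 0.29 (-0.03 to 0.61) in *Adm*+/- mice. The platelet and megakaryocyte list of 10 genes, none of them a member here, summed to 95.4 to 105 CPM in WT PBS and 133 to 154 CPM in WT LPS, and to 84.4 to 97.2 and 117 to 180 CPM in *Adm*+/- mice; the part of these cells in *Vwf*, *Fli1*, *Tal1* and *Gata2* was not tested.

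All 3 adhesion and G-protein-coupled receptors had positive fold changes in both genotypes. *S1pr1* (chr3:115710433-115715072), the sphingosine-1-phosphate receptor that tightens the barrier and lets lymphocytes leave lymphoid organs, was at 129.5, 140.3 and 77.1 CPM in WT PBS and at 266, 199.9 and 137 CPM in WT LPS. In *Adm*+/- mice it had 99.4, 125 and 128 CPM under PBS and 335, 382 and 300.2 CPM under LPS. WT LPS replicate 11 lay among the PBS libraries, while each *Adm*+/- LPS library was above every other library. The rise was 1.53 in *Adm*+/- mice (SE 0.26, adjusted p = 0.00111), a level 2.89 times that under PBS, and 0.80 in WT (SE 0.25, adjusted p = 0.0431). The WT call was kept in only 3 of 12 fits that left out 1 library, with a range from 0.54 to 1.01, and was lost without WT PBS replicate 3 or 5, WT LPS replicate 9 or 10, *Adm*+/- PBS replicate 7 or 8, or any *Adm*+/- LPS replicate. The sum of 10 T cell genes was 24.1 to 30.3 CPM in WT PBS, 19.0 to 31.4 in WT LPS, 23.9 to 28.8 in *Adm*+/- PBS and 15.9 to 20.8 in *Adm*+/- LPS, and that of 10 NK cell genes was 5.81 to 7.47, 9.12 to 12.7, 5.80 to 6.42 and 8.60 to 15.7 CPM in the same order. The part of these cells in the *S1pr1* value was not tested.

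*Adgrf5* (chr17:43360451-43459557), an adhesion receptor also found on alveolar type II cells, had 700.4, 689 and 436 CPM in WT PBS, 927, 760.3 and 723 CPM in WT LPS, 528, 678 and 764 CPM in *Adm*+/- PBS and 1034, 959 and 912 CPM in *Adm*+/- LPS. Groups were separate in each genotype. It was called in *Adm*+/- mice (0.56, SE 0.19, adjusted p = 0.0409) and not in WT (0.40, SE 0.19, adjusted p = 0.144), and the call was lost without any 1 of the *Adm*+/- LPS replicates, *Adm*+/- PBS replicate 6 or 7, or WT LPS replicate 10 (range 0.42 to 0.68). *Adgrl4*, a latrophilin-like receptor of angiogenic endothelium, had 0.78 in WT and 0.51 in *Adm*+/- mice, with adjusted p of 0.0648 and 0.183. Its WT PBS values were 45.6, 46.5 and 18.2 CPM, and with both GC-deviating PBS libraries left out the WT value was 0.45 (adjusted p = 0.00336), inside the fold limit. It was called in WT mice by DESeq2 (0.78), by limma-voom (0.87), with the GC offset (0.68) and without WT PBS replicate 3 or 4, and in *Adm*+/- mice without WT PBS replicate 5 and in the fit of only the compared libraries.

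*Scn7a* (chr2:66673425-66784914), a sodium-sensing channel that stromal and Schwann cells express as well as endothelium, stood at 1219, 1033 and 601 CPM in WT PBS and at 486, 456 and 607 CPM in WT LPS, and at 886, 1357 and 1340.3 CPM in *Adm*+/- PBS and 427, 467 and 459.7 CPM in *Adm*+/- LPS. The WT groups overlapped through WT PBS replicate 5, which was the lowest of its group, and the *Adm*+/- groups were separate. Its log2 fold change was -0.88 in WT (SE 0.24, adjusted p = 0.0230) and -1.40 in *Adm*+/- mice (SE 0.24, adjusted p = 0.00128). The WT call was lost without WT PBS replicate 3 or 4 or without WT LPS replicate 9 or 10, with a range from -1.13 to -0.66. Of 10 Schwann cell genes, 4 rose and none fell in WT mice and 1 rose in *Adm*+/- mice by edgeR, and of 10 lung fibroblast genes, 2 rose and 1 fell in WT and 1 rose and 2 fell in *Adm*+/- mice. The part of these cells in the *Scn7a* value was not tested.

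**Figure D3:**
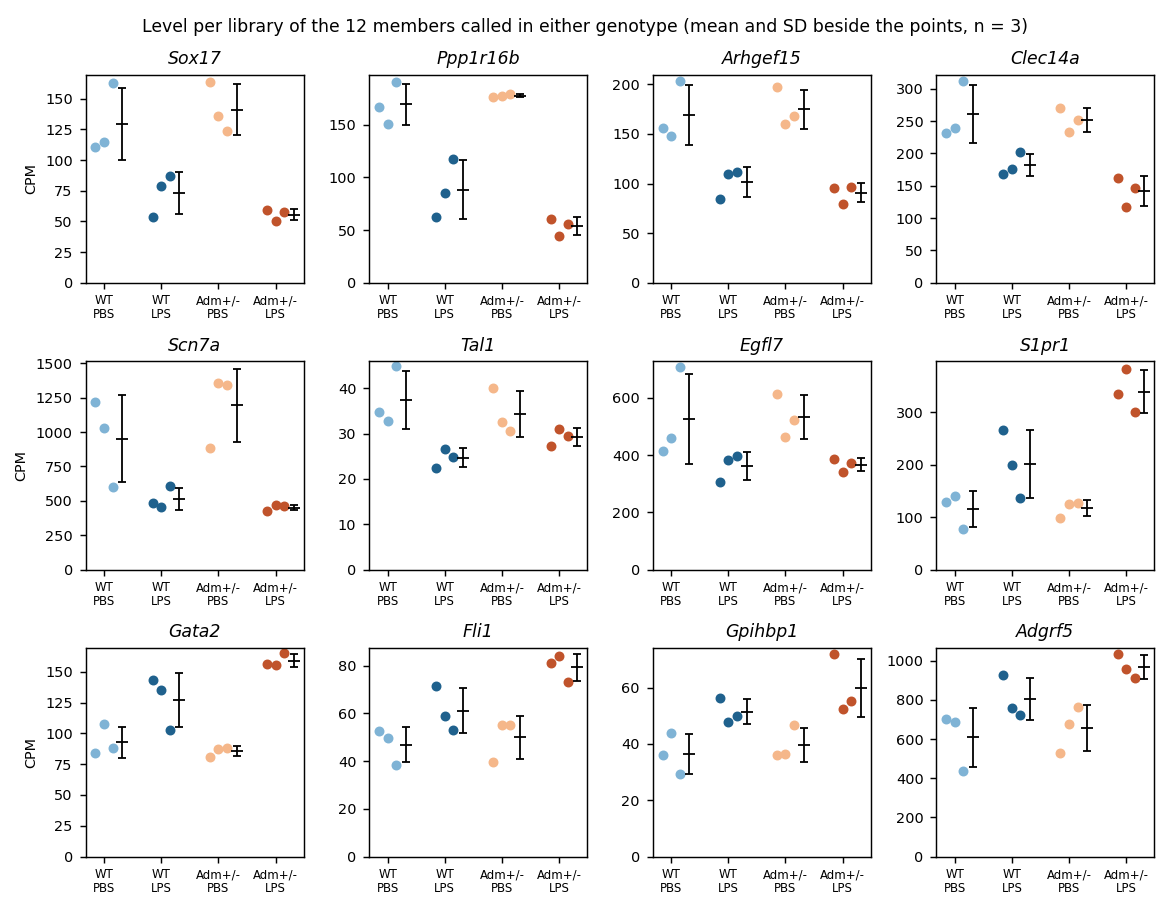
CPM in each library (points, in the order of the replicate numbers given in the text) of the 12 genes called in either genotype, with the mean and SD of the 3 libraries beside them. All axes start at 0, and 5 genes are called as falling in both genotypes while *S1pr1* rises to between 300.2 and 382 CPM in *Adm*+/- LPS.

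To show the regulatory sequence beside these changes, the 250 bases before the RefSeq start (GRCm38.p6, the same assembly as mm10) were read for the 17 of 33 genes that had an entry. The stretches of 3 genes that fell in both genotypes and of *Adgrf5*, which rose, are given 5′ to 3′ on the strand of the gene. Capitals mark GGAAG or its reverse complement CTTCC, called the ETS core here, and the GATA site AGATAA or TTATCT. The shorter GGAA and TTCC were neither marked nor counted. No ETS core shares a base with a GATA site in the stretches shown, while a pair of ETS cores in *Ppp1r16b* shares 1 base (CTTCCTTCC) and each is counted. The stretches are chr2:158666483-158666732 on the plus strand for *Ppp1r16b*, chr2:66784911-66785160 on the minus strand for *Scn7a*, chr12:58269259-58269508 on the minus strand for *Clec14a* and chr17:43360181-43360430 on the plus strand for *Adgrf5*. The RefSeq start of *Ppp1r16b* lies 1335 bases from the start of the gene in Gencode.
Ppp1r16b: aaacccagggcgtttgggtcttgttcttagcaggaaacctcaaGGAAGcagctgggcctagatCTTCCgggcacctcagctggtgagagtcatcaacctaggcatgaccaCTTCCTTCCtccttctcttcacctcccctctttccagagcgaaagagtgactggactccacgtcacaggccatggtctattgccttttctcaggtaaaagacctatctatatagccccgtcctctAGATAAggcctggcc
Scn7a: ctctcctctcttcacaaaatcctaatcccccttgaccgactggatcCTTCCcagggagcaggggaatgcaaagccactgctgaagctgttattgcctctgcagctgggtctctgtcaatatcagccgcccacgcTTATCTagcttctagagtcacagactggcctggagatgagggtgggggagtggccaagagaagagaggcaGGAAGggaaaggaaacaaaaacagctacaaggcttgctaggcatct
Clec14a: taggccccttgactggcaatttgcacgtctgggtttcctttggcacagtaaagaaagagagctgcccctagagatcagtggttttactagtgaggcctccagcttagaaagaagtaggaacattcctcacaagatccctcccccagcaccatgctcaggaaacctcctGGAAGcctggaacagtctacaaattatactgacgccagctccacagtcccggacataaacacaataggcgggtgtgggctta
Adgrf5: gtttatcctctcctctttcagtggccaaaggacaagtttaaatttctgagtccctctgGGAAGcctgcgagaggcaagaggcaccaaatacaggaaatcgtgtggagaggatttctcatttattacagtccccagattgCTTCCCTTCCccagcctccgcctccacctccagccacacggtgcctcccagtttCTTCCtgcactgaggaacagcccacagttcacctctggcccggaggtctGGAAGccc

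*Adgrf5* held 5 ETS cores in this stretch, *Ppp1r16b* held 4 and *Scn7a* 2, with 1 GATA site in each of the latter, and *Clec14a* held 1 ETS core. Over the 17 genes, 12 held an ETS core and 3 a GATA site, beside 64.1% and 9.99% of 32817 promoters. GGAAG or CTTCC was found in genes that fell and in *Adgrf5*, which rose. Neither was in the stretch of *Gata2*, which rose in *Adm*+/- mice, or of *Tal1*, which fell in WT mice. The stretches of *Gata2* and *Tal1* do hold the shorter GGAA.

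The next comparison was *Adm*+/- against WT mice within each treatment. Under PBS, edgeR called 0 of 33 (0% of all tested genes), DESeq2 and limma-voom also called 0, and 0 of the 33 had an unadjusted p below 0.05, against 344 of all tested genes. Log2 fold changes of *Adm*+/- against WT mice under PBS ran from -0.29 for *Vwf* to 0.33 for *Scn7a*. No gene had separate PBS groups, beside 4.99% of all tested genes.

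Under LPS, edgeR called 0 of 33 (beside 2.05% of all tested genes, 0.327% higher and 1.72% lower), limma-voom 0 (beside 1.79%) and DESeq2 1 (beside 5.06%), and 8 had an unadjusted p below 0.05, against 2275 (14.3%) of all tested genes. *Ppp1r16b* had the smallest p, with a log2 fold change of -0.72 in *Adm*+/- against WT mice (SE 0.20, adjusted p = 0.0869 in edgeR and 0.0183 in DESeq2). It was followed by *S1pr1* at 0.75 (adjusted p = 0.163), *Esam* at 0.38 (0.192), *Rasip1* at 0.71 (0.223), *Cdh5* at 0.30 (0.240), *Gata2* at 0.32 (0.277), *Clec14a* at -0.35 (0.290) and *Fli1* at 0.38 (0.318). The study had already drawn *Ppp1r16b* from these same libraries as a marker that fell more in *Adm*+/- mice. Its rank here was therefore not independent of that choice. With both GC-deviating PBS libraries left out, *Rasip1* was called by edgeR at 0.72 (SE 0.098, adjusted p = 0.00520), beside 3.4% of all tested genes. With the GC offset *Rasip1* (0.80), *Ppp1r16b* (-0.72) and *Cldn5* (0.57) were called, beside 3.76%. The LPS libraries of the genotypes did not overlap for 12 genes, 9 higher and 3 lower in *Adm*+/- mice, beside 24.6% of all tested genes, 12.2% higher and 12.4% lower.

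The difference between the LPS responses of the genotypes, which uses the PBS and LPS libraries of both, called 0 of 33 in edgeR, DESeq2 and limma-voom, beside 0.145%, 1.06% and 0.0063% of all tested genes. An unadjusted p below 0.05, which 7.85% of all tested genes had, was reached by *Ppp1r16b* (-0.79, SE 0.28, adjusted p = 0.467), *Gata2* (0.44, SE 0.19, adjusted p = 0.580) and *Esam* (0.41, SE 0.19, adjusted p = 0.628). For *Ppp1r16b* this was not independent of the study's choice of that gene from these libraries. All 6 genes called in both genotypes had the larger absolute fold change in *Adm*+/- mice, yet none of these differences passed. They were -0.52 for *Sox17* (SE 0.28, adjusted p = 0.732), -0.52 for *Scn7a* (SE 0.33, adjusted p = 0.829), -0.30 for *Clec14a* (SE 0.21, adjusted p = 0.857), -0.22 for *Arhgef15* (SE 0.22, adjusted p = 0.964) and 0.73 for *S1pr1* (SE 0.35, adjusted p = 0.670), besides that of *Ppp1r16b*. The 95% interval for *S1pr1*, from -0.04 to 1.51, spans from no difference to one of about the size of its rise in *Adm*+/- mice.

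Endothelial genes that are no members were taken from fixed lists. A pan-endothelial list of 13 genes had 4 falls and no rise in WT mice and 5 falls and 2 rises in *Adm*+/- mice, with medians of -0.38 and -0.33. In it, the VEGF receptor *Kdr* fell with log2 fold changes of -0.79 and -1.11, *Exoc3l2* fell with -1.56 and -2.23, and *Icam2* stood at 0.01 and 0.00. The 2 rises in *Adm*+/- mice were those of *Robo4* (0.68, with 0.12 in WT) and *Shank3* (0.80, with 0.16 in WT). When the libraries were rescaled so that this list was level, the median of all tested genes shifted by 0.42 in WT and by 0.44 in *Adm*+/- mice. On that scale 42.9% of all tested genes were higher and 2.39% lower in WT mice by the adjusted p, and 43.9% and 4.49% in *Adm*+/- mice. *Sox17*, *Ppp1r16b* and *Arhgef15* were lower in both genotypes and *Scn7a* and *Clec14a* in *Adm*+/- mice by the adjusted p, with log2 fold changes of -0.42, -0.53 and -0.32 in WT and of -0.91, -1.30, -0.51, -0.97 and -0.39 in *Adm*+/- mice. Conversely 14 genes in WT and 19 in *Adm*+/- mice were higher, among them *Pecam1*, *Gpihbp1*, *Gata2*, *S1pr1* and *Vwf* in both and *Cdh5* in *Adm*+/- mice. Genes of neither set numbered 16 in WT and 9 in *Adm*+/- mice, *Cldn5*, *Sox18*, *Egfl7* and *Erg* among them. Since this scale raises every gene alike, a rise could not lose its sign on it, and genes slightly below 0 came to lie above it. With the fold limit kept, the falls of *Sox17* and *Arhgef15* in WT mice were no longer called on it.

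**Figure D4:**
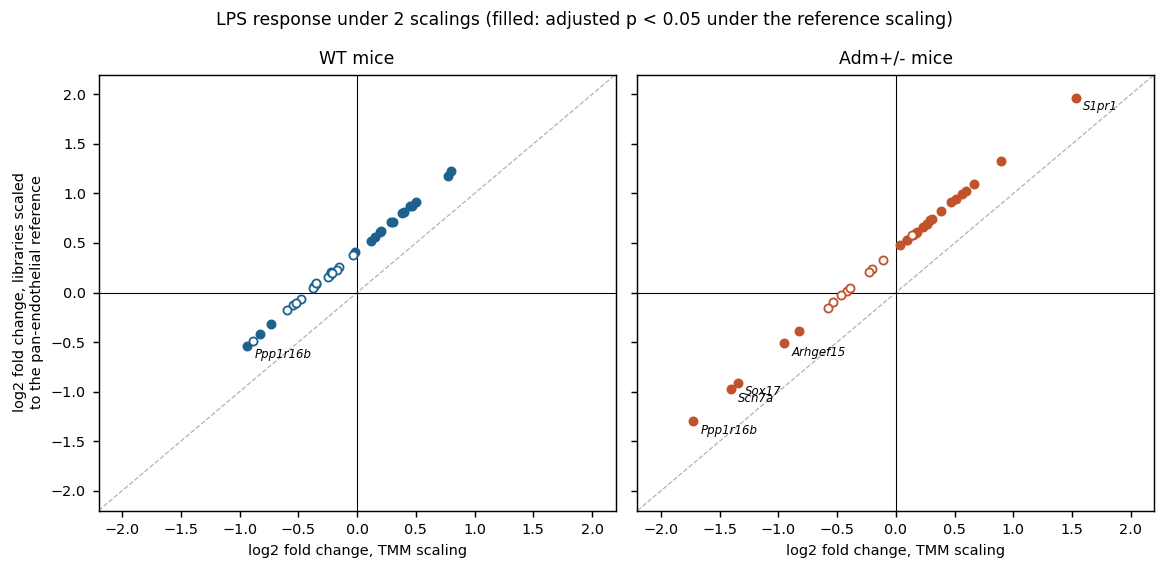
Log2 fold change of LPS against PBS under TMM scaling (horizontal axis) and after the libraries were scaled to 13 pan-endothelial genes (vertical axis) for the 33 genes in WT and *Adm*+/- mice, with filled points at adjusted p below 0.05 on the second scale. All points lie above the dashed line of equality, and 3 genes in WT and 5 in *Adm*+/- mice remain significantly below 0.

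Lists of endothelial subtypes are given as counts, to be read beside the 10.5% of all tested genes that rose and 7.09% that fell in WT mice and the 12.8% and 12.2% in *Adm*+/- mice. Of 10 arterial genes, 5 fell in WT and 4 in *Adm*+/- mice and none rose, *Sox17* being among both. Of 10 venous genes, 5 rose in each genotype and none fell, and the member genes in that list, *Vwf* and *Emcn*, were not called. The venous list shares *Selp* and *Ackr1*, which had 5.00 and 3.85 in WT mice, with the list of activated endothelium below. Rises in these 2 lists are therefore not separate results. Of 10 lymphatic genes, 5 rose in WT and 4 in *Adm*+/- mice, without *Prox1*. Of 10 general capillary genes, 1 rose and 1 fell in WT and 2 rose and 1 fell in *Adm*+/- mice, and of 10 aerocyte genes 1 and 2 fell. Of 10 genes of the laminar flow response, 3 rose in WT, and 3 rose and 2 fell in *Adm*+/- mice, *S1pr1* among the rises and *Klf2* not. The 10 genes of activated endothelium, such as the selectins *Sele* and *Selp*, held 8 rises in WT and 9 in *Adm*+/- mice, with medians of 3.06 and 5.31. Selected counts in other lists moved with LPS as well: the 10 neutrophil genes summed to 59.5 to 185 CPM in WT PBS, 1698 to 2965 CPM in WT LPS, 40.7 to 68.3 CPM in *Adm*+/- PBS and 1606 to 1922 CPM in *Adm*+/- LPS, and of 10 monocyte and macrophage genes 8 rose in WT mice, and 7 rose and 1 fell (*Cx3cr1*, -2.15) in *Adm*+/- mice. In WT LPS, 10 skeletal muscle genes summed to 357 to 1184 CPM against 6.63 to 26.9 CPM in the other groups, and 10 squamous epithelium genes to 26.3 to 3007 CPM against 1.07 to 41.8 CPM. The part of these cells in the endothelial values was not tested.

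Within groups, the median absolute log2 ratio of the 33 genes to the mean of the other 2 libraries was largest in WT PBS replicate 5, at 0.434, and in *Adm*+/- PBS replicate 6, at 0.285. It was 0.134 to 0.254 in the other 4 PBS libraries and 0.0939 to 0.199 in the 6 LPS libraries. In WT PBS replicate 5, the log2 ratio to the mean of the other 2 libraries ran from -1.34 for *Adgrl4* to 1.0 for *Rasip1*, and across the 33 genes it followed the GC content of the longest transcript, with Pearson's r = 0.81 and a Spearman coefficient of 0.81. In *Adm*+/- PBS replicate 6 it ran from -0.68 for *Emcn* to 0.67 for *Rasip1*, with r = 0.83 and a Spearman coefficient of 0.81. These correlations are across genes of 1 library, which are not independent. Since the ratios are taken within a group of 3, the remaining PBS libraries mirrored them, with r from -0.86 to -0.61. In the 6 LPS libraries r lay between -0.25 and 0.42. WT LPS libraries differed instead in single genes, with *Ppp1r16b* at -0.70 and *S1pr1* at 0.66 in replicate 9 and at 0.67 and -0.77 in replicate 11. Across the 33 genes the *Adm*+/- against WT fold change under PBS followed GC with r = -0.66, and with r = -0.09 after a GC offset for each library. With TMM and with the offset, r was -0.25 and 0.07 for the LPS response in WT mice, 0.05 and 0.20 for that in *Adm*+/- mice, 0.22 and 0.31 for the genotypes under LPS, and 0.43 and 0.32 for the difference in LPS response. Without WT PBS replicate 5 and *Adm*+/- PBS replicate 6, 5 genes were called in WT mice, beside 15.3% of all tested genes, and 11 in *Adm*+/- mice, beside 24.4%. In WT mice *Clec14a* (-0.37), *S1pr1* (0.57) and *Tal1* (-0.45) were lost and *Klf2* (0.53) was added, and in *Adm*+/- mice *Adgrf5* (0.43) and *Egfl7* (-0.42) were lost and *Emcn* and *Rasip1* were added.

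**Figure D5:**
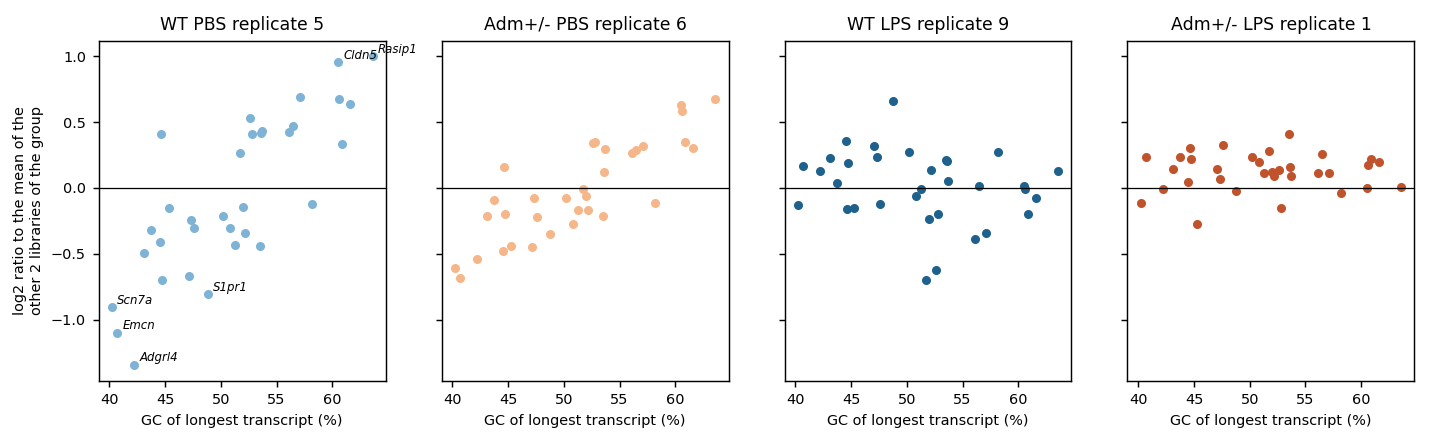
Log2 ratio of each of the 33 genes in 1 library to the mean of the other 2 libraries of its group, against the GC content of its longest transcript in percent, for the 2 PBS libraries rich in *Gm26917* and 1 LPS library of each genotype. The PBS libraries slope upward (r = 0.81 and 0.83), and in WT LPS replicate 9 *S1pr1* stands out at 0.66 and *Ppp1r16b* at -0.70.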

How the data were processed

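Lung RNA of 12 mice was sequenced from directional, ribosomal RNA-depleted libraries, with 1 mouse per library. The authors used Trim Galore on the reads, HISAT2 for alignment to mm10 and featureCounts with a Gencode annotation, and deposited whole-number raw counts for 52550 genes. The Gencode release and the strand setting of the counting are not given in the sources used here, so reads of overlapping genes may be shared between them. Groups were taken from the sample labels. None of 12 replicate pairs held identical counts. Reads carry no molecular identifiers, so counting precision covers counting error only.

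From these counts, the 15885 of 21950 protein-coding genes that passed filterByExpr were scaled by TMM and tested in R 4.3.3 with edgeR 4.0.16 (glmQLFit and glmQLFTest, 1 coefficient per group, no covariate, 8 residual degrees of freedom, 5 contrasts). The p-values were adjusted over all tested genes by Benjamini-Hochberg, and a gene was called at an adjusted p below 0.05 with an absolute log2 fold change above 0.5. Intervals are at 95%. The code was tested on simulated data. Alternatives were RLE size factors, DESeq2 1.42.0, limma-voom and its treat test (limma 3.58.1), no filter on low counts, all annotated genes, no fold limit, only the libraries of a comparison, scaling to a pan-endothelial list, an offset for GC content, and leaving out single libraries or both GC-deviating PBS libraries. The GC offset without both was added after the values were seen. Positions, exon lengths and GC content came from Gencode M21, in which 99.7% of the genes were found.

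All 33 genes are named, and values per library are given for those called in either LPS comparison. The genes and the 25 lists, written by hand from general knowledge, were chosen with earlier results of these data known. *Ppp1r16b* is among the markers the study itself drew from these libraries, for a stronger fall in *Adm*+/- than in WT mice. Lists are described by counts and medians and were not tested as sets.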

Additional observations from a re-analysis of the deposited data

How the results depend on the processing

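The falls of *Sox17*, *Ppp1r16b* and *Arhgef15* in both genotypes, and those of *Scn7a* and *Clec14a* and the rises of *S1pr1*, *Gata2* and *Fli1* in *Adm*+/- mice, stayed called in all 12 fits that left out 1 library. Over these fits the number of genes called ranged from 3 to 9 in WT mice (9.0% to 19.1% of all tested genes), from 8 to 13 in *Adm*+/- mice (18.8% to 27.9%) and from 0 to 1 for *Adm*+/- against WT mice under LPS (0.503% to 3.56%). Under every alternative, 0 of the 33 genes were called for the genotypes under PBS, and likewise for the difference in LPS response, which uses all 12 libraries, so that the fit of only the compared libraries has no separate value there. Against 7 calls in WT mice (17.6% of all tested genes), limma-voom's treat test gave 0 (3.41%), the fit of only the compared libraries 1 (7.39%), the GC offset 11 (20.2%) and the pan-endothelial scaling 14 (35.4%), of which 2 were among the 7 (*Ppp1r16b* and *S1pr1*) and 12 were added rises, while *Arhgef15*, *Clec14a*, *Scn7a*, *Sox17* and *Tal1* were lost. Against 11 in *Adm*+/- mice (25.0%), treat gave 4 (7.17%) and the pan-endothelial scaling 22 (38.7%), of which 9 were among the 11 and 13 were added rises, while *Clec14a* and *Egfl7* were lost. Against 0 for the genotypes under LPS, where these settings called between 1.56% and 5.06% of all tested genes, DESeq2 and the pan-endothelial scaling each gave 1 (*Ppp1r16b*), the fit of only the compared libraries and the fit without both GC-deviating PBS libraries each 1 (*Rasip1*), the GC offset 3 (*Ppp1r16b*, *Rasip1* and *Cldn5*), and the GC offset without both libraries 2 (*Rasip1* and *Cldn5*). Fewer libraries entered the fits of only the compared libraries, and the treat test requires a change beyond 0.5; for the other settings the cause was not tested.

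Changes of sign were limited to genes that did not pass. Under the pan-endothelial scaling, which raises each value by construction, WT values became 0.26 for *Cdh5*, 0.09 for *Cldn5*, 0.38 for *Cd93*, 0.18 for *Ptprb*, 0.06 for *Plvap*, 0.05 for *Esam*, 0.23 for *Emcn*, 0.16 for *Erg*, 0.21 for *Mmrn2*, 0.19 for *Podxl*, 0.40 for *Vwf* and 0.10 for *Rasip1*, and *Adm*+/- values 0.02 for *Ptprb*, 0.33 for *Plvap*, 0.23 for *Erg*, 0.21 for *Tal1* and 0.04 for *Podxl*. Without both GC-deviating PBS libraries, WT values were 0.03 for *Cldn5*, -0.02 for *Car4*, 0.15 for *Vwf*, 0.06 for *Rasip1* and -0.05 for *Nostrin*, and *Plvap* was 0.11 in *Adm*+/- mice. With the GC offset they were 0.14 for *Vwf* and 0.11 for *Rasip1* in WT and 0.16 for *Plvap* in *Adm*+/- mice, and with both changes 0.10 for *Cldn5*, 0.17 for *Vwf*, 0.18 for *Rasip1*, -0.03 for *Nostrin* and 0.23 for *Plvap*. Over the fits without 1 library, WT values ran from -0.55 to 0.03 for *Cldn5*, from -0.12 to 0.05 for *Cd93*, from -0.02 to 0.20 for *Car4*, from -0.45 to 0.04 for *Emcn*, from -0.11 to 0.15 for *Vwf*, from -0.56 to 0.06 for *Rasip1* and from -0.05 to 0.27 for *Nostrin*, and *Adm*+/- values from -0.01 to 0.37 for *Cldn5*, from -0.22 to 0.10 for *Plvap* and from -0.02 to 0.13 for *Esam*. No paired analysis was possible because the groups share no replicate numbers. With 3 mice per group, the intervals of the genotype differences are wide.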
